A study of Mus musculus with 14 samples.

Results

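Binding of RXRα was set against binding of p300 in mouse gastruloids, aggregates of embryonic stem cells that elongate and form the layers of the early embryo in culture. The peaks of each protein were merged where they overlapped by 1 bp, and regions with a peak in both of its libraries were kept, after peaks that overlapped an input peak had been dropped. This gave 2352 RXRα regions and 53025 p300 regions, from 171441 peaks in these 4 libraries and out of 417269 in the 12 immunoprecipitations of the series. Of the RXRα regions, 2017 overlapped a p300 region and 335 did not. Of the p300 regions, 2014 overlapped an RXRα region and 51011 did not.

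All cells came from 1 mouse embryonic stem cell (mESC) line, an E14 line with fluorescent reporters for Brachyury and SOX17. RXRα was read in cells whose own Rxra gene carried an HA tag and the FKBP12F36V degron, a domain that allows the protein to be degraded with a ligand; the labels name no such ligand. p300 was read in separate cells whose own p300 gene carried a V5 tag and the labelling enzyme miniTurboID. Both kinds of gastruloid were grown from 300 sorted cells, received 3 µM CHIR99021, an inhibitor of GSK3 that switches on Wnt signalling, at 48 h, and were collected at 120 h. RXRα and p300 were also read in undifferentiated mESCs of the same tagged lines. HA-tagged Sp5 and Zeb2, 2 other transcription factors, were read in gastruloids with the HA antibodies used for RXRα. There were 2 libraries of each protein and cell type, and the labels do not say whether they came from separate cultures. Every group carried its tag in all cells, no untagged control was used here, and both inputs came from the p300 line. A gastruloid holds many cell types, so fewer cells with a bound site and less binding per cell cannot be told apart. The files hold no expression values, and the cell types were not checked against marker genes.

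RXRα, a retinoid X receptor, is a nuclear receptor that binds DNA as a partner of other nuclear receptors, among them the retinoic acid receptors, the liver X receptors and the peroxisome proliferator-activated receptors. These pairs recognise repeats of a short half-site, and the spacing of the repeat differs with the partner. p300 is an acetyltransferase that does not read DNA sequence itself but is recruited by transcription factors, nuclear receptors with bound ligand included, and is widely used as a mark of active enhancers and promoters. Retinoic acid is made in the trunk of the early embryo, where it patterns the hindbrain, spinal cord and somites and switches on Hox genes.

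Direct repeats of the half-site could be read at the starts of genes, in the RefSeq windows that run from 250 bases before to 50 bases after a start (build GRCm38.p6). The half-site words were AGGTCA with its near form GGGTCA, and AGTTCA with its near form GGTTCA. Any pair of them was sought on both strands, in the same orientation and 0 to 8 bases apart. Of 954 windows (835 gene symbols) that overlapped an RXRα region with p300, 21 held such a repeat (2.2%), against 2 of 52 windows at RXRα regions without p300 (3.85%), 54 of 10196 windows at p300 regions without RXRα (0.53%) and 367 of all 32851 windows (1.12%). A spacer of 1 base was the most frequent, in 13 of the 954 windows (1.36%), against 16 of the 10196 windows with p300 and without RXRα (0.157%) and 73 of all windows (0.222%). Windows that overlap were counted separately: those of Isca1 and Etohd2, on opposite strands, hold the same repeat, and both are among the 13. These are matches of letters, not bound sites, and most windows at RXRα regions had none in this stretch.

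The windows below are shown because they combine a repeat with an RXRα region that carried p300; the repeat is in capitals and each runs 5′ to 3′ in the direction of the gene. Rarb, which encodes retinoic acid receptor beta, came first because it belongs to the retinoic acid list, at chr14:16575427-16575726 on the minus strand. Its repeat has a spacer of 5 bases, the spacing read by RXR with a retinoic acid receptor, and its first base lies 53 bases before the start (position -53). Chchd1, a mitochondrial protein gene at chr14:20702777-20703076 on the plus strand, has a spacer of 4 bases. Ccdc71, at chr9:108460303-108460602 on the plus strand, has the spacer of 1 base.
Rarb: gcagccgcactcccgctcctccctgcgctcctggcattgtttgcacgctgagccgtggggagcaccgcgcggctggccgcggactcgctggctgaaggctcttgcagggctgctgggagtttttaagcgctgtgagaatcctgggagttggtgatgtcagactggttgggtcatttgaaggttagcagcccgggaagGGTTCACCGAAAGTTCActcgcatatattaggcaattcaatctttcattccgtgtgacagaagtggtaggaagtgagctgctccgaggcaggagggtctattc
Chchd1: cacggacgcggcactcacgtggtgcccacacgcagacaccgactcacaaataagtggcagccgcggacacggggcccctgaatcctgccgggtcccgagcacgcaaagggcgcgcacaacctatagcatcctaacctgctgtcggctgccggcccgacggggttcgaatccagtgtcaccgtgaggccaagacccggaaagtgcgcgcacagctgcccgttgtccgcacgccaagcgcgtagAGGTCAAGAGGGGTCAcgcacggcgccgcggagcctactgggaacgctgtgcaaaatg
Ccdc71: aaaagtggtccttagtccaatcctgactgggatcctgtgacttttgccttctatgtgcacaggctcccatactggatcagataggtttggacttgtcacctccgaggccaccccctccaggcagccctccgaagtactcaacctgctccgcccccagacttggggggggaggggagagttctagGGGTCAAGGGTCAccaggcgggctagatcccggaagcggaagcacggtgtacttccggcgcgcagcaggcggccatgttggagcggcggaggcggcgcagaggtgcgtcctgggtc

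The Rarb start was covered by 1 of the stronger RXRα regions, chr14:16575052-16575833. RXRα stood there at 28.7-fold and 17.4-fold over local background in libraries 1 and 2, on 472 and 78 fragments at the summit. p300 stood at 6.93-fold and 6.38-fold, against medians of 6.78 and 7.67 over all regions with both proteins. In mESCs RXRα had a peak there in both libraries, at 19.5-fold and 16.4-fold, and p300 in the second alone, at 4.52-fold. At Chchd1 the RXRα fold was 23.5 and 12.6 and the p300 fold 4.78 and 7.43. At Ccdc71 the RXRα fold was 19.7 and 6.44 and the p300 fold 7.84 and 7.8. Ccdc71 was at place 5 in the order of these windows. Dedd, with a spacer of 8 bases, and 1700008J07Rik, with a spacer of 1 base, stood ahead of it at places 3 and 4. Zfp335os, with a spacer of 2 bases, followed at place 6. In Dedd, 1700008J07Rik and Zfp335os the p300 fold lay between 5.8 and 7.84 in both libraries.

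Other words were counted on both strands of the same windows. CCGGAAG, the core of the ETS site, was found in 24.7% of windows at RXRα regions with p300, in 7.69% at RXRα regions without p300 and in 18% at p300 regions without RXRα, against 8.86% of all windows. GGGCGG, the GC box, was found in 71.4%, 59.6% and 68.4% of the same 3 classes, against 35.7% of all windows. The single half-site AGGTCA, which is also part of the repeats, was found in 15.9%, 28.8% and 10.7%, against 16.3% of all windows. The median GC content of the windows was 64.7%, 61.5% and 62.3% in the same 3 classes and 52.7% over all windows.

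The 4 peak lists differed in length. RXRα had 29867 and 3111 peaks in libraries 1 and 2, and p300 had 63117 and 75346. Total read depth is unknown. The median peak had 16 and 13 fragments at its summit in the RXRα libraries and 24 and 18 in the p300 libraries, so weak sites can be missed and the absence of a region does not show that a protein was absent. The second RXRα list is the shortest and sets the upper limit of the number of RXRα regions.

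RXRα regions in gastruloids lay mostly where p300 also had a region, and the reverse held for few p300 regions. p300 regions overlapped 85.8% of the 2352 RXRα regions (exact 95% interval 84.3 to 87.1), and RXRα regions overlapped 3.8% of the 53025 p300 regions (3.64 to 3.96). These intervals cover counting error only. Taken library by library, 58.7% of the peaks of RXRα library 1 and 68.8% of those of library 2 lay at p300 regions. Without RXRα replicate 2, so that each peak of the first list counted as a region, the share of p300 regions with RXRα was 30.5%. With the strongest 3111 peaks of every list, p300 regions overlapped 20.5% of the 1370 RXRα regions that remained, and RXRα regions overlapped 10.7% of 2615 p300 regions.

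Peaks found in both RXRα libraries were more often at p300 regions than peaks found in 1 library. Of the library 1 peaks that library 2 also held, 85.7% of 2356 lay at p300 regions, against 56.4% of the 27511 that library 2 lacked. The contrast was wider in library 2, with 85.2% of 2365 shared peaks and 16.8% of 746 peaks that library 1 lacked.

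The overlap with p300 was higher among stronger RXRα peaks than among weaker ones. In the strongest 10% of peaks, 74.9% of library 1 and 91% of library 2 lay at p300 regions, against 47.5% and 49.7% in the weakest 10%. Among regions in 5 groups of equal size by rank, the share with p300 was 93.2% in the strongest group, then 89.1%, 85.1% and 85.1%, and 76.2% in the weakest. On the p300 side the strongest 10% of peaks lay at RXRα regions in 6.78% and 6.58% of cases, against 1.74% and 1.55% of the weakest. Gene ends were rarest among the strongest peaks of both proteins, as the plot of peaks by strength shows.

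**Figure D1:**
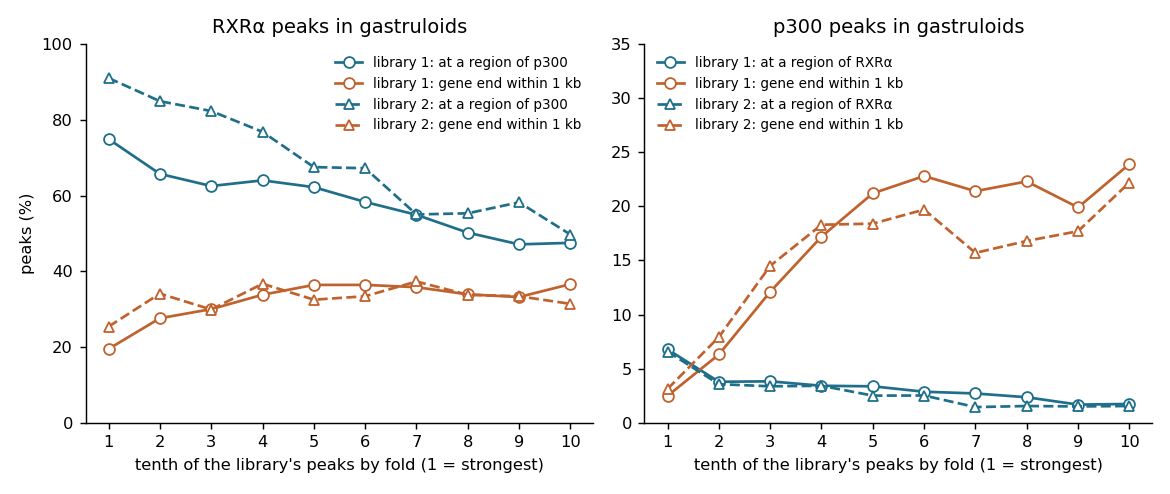
Share of gastruloid peaks (y axis, %) that lay at a region of the other protein (blue) or within 1 kb of a gene end (orange), in 10 equal groups of each library's peaks by the authors' fold (x axis, strongest at 1), for libraries 1 (circles) and 2 (triangles). Overlap with the other protein was highest among the strongest peaks (74.9% and 91% for RXRα, 6.78% and 6.58% for p300), while gene ends were rarest there (19.5% and 25.4% for RXRα, 2.49% and 3.13% for p300); the 2 panels have different y scales.

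The median RXRα fold was somewhat higher at regions with p300, mainly at those away from gene ends. It was 12.3 in library 1 and 5.52 in library 2 at regions with p300, against 9.31 and 5.15 at regions without, which gives ratios of 1.33 and 1.07 (mean 1.2 ± 0.18, SD, n = 2 libraries). Within 1 kb of a gene end the medians were 10.5 and 5.17 with p300, against 9.09 and 5.14 without. Farther away they were 14 and 5.87, against 9.42 and 5.15. For p300 the median fold was 6.78 and 7.67 at regions with RXRα, against 6.09 and 6.82 without, with ratios of 1.11 and 1.12 (mean 1.12 ± 0.00819, SD, n = 2 libraries). An exact test on 2 libraries cannot pass 0.05, so none was made. The p300 ratio turned to 0.951 without RXRα replicate 2 and to 0.985 with lists of equal length. Regions with both proteins were also longer, which the 1 bp overlap that defines them favours, with a median of 515 bp against 385 bp for RXRα regions with and without p300, and 793 bp against 500 bp for p300 regions with and without RXRα. Across the 2017 shared regions the folds of the 2 proteins were weakly related, with a Spearman rank correlation of 0.334 in library 1 and 0.308 in library 2, described here without a test because regions of 1 library share its depth.

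RXRα regions with p300 lay at gene ends more often than those without. A summit within 1 kb of an end of a protein-coding gene was found in 848 of 2017 regions with p300 (42%) and in 67 of 335 regions without (20%), an odds ratio of 2.9 (95% interval 2.19 to 3.85; two-sided Fisher's exact test, p = 3.25e-15 after Benjamini-Hochberg adjustment over 6 comparisons). These p-values treat regions as the unit and measure the spread between regions, not between replicates. The difference was 31.4 and 29.2 percentage points among the peaks of RXRα libraries 1 and 2 alone. It held for RefSeq starts in place of gene ends (40.4% and 20.6%). The direction depended on how overlap was judged. With 100 bp either side of each summit in place of the whole peak, 34.9% of regions with p300 and 46.7% of those without lay at gene ends. The odds ratio was then 0.612 (Fisher's exact test, adjusted p = 4.76e-08). That alternative was added after seeing the data. In equally long lists the shares were 5.34% with and 41.4% without p300 (odds ratio 0.0798, Fisher's exact test, adjusted p = 6.54e-36). At −log10 q of at least 5 they were 33.5% and 22.2% (odds ratio 1.77, Fisher's exact test, adjusted p = 0.00209).

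p300 regions with RXRα were also at gene ends more often than p300 regions without, with 855 of 2014 (42.5%) and 8735 of 51011 (17.1%). The odds ratio was 3.57 (3.26 to 3.91; two-sided Fisher's exact test, adjusted p = 6.03e-148). The difference was 25.8 and 26.9 points among the peaks of p300 libraries 1 and 2 alone. In each of 5 equal groups of p300 regions by strength the share was higher with RXRα, from 8.47% with and 3.58% without in the strongest group to 64.2% and 19.3% in the middle one. In equally long lists the shares were 5.69% with and 3.77% without RXRα (Fisher's exact test, adjusted p = 0.172, against 1.09e-37 or lower in the other alternatives). With −log10 q of at least 5 they were 33.6% and 17.2%, and with 100 bp either side of each summit 35% and 17.6%. p300 regions at gene ends were longer than distal ones, which favours a 1 bp overlap there. Their median was 1023 bp with RXRα and 832 bp without, against 671 bp and 468 bp at distal regions.

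The p300 regions without an RXRα region were of several kinds. In 14121 of them the first RXRα library alone had a peak, and 43.5% of these lay at gene ends, close to the 42.5% of regions with RXRα. In 36767 neither RXRα library had a peak, and there the share was 6.93%. In 95 only the second RXRα library had a peak, with 23.2% at gene ends, and in 28 both lists had peaks that did not form a common region. Of the 335 RXRα regions without p300, 121 had a peak in 1 p300 library and 214 in neither, with 23.1% and 18.2% at gene ends.

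**Figure D2:**
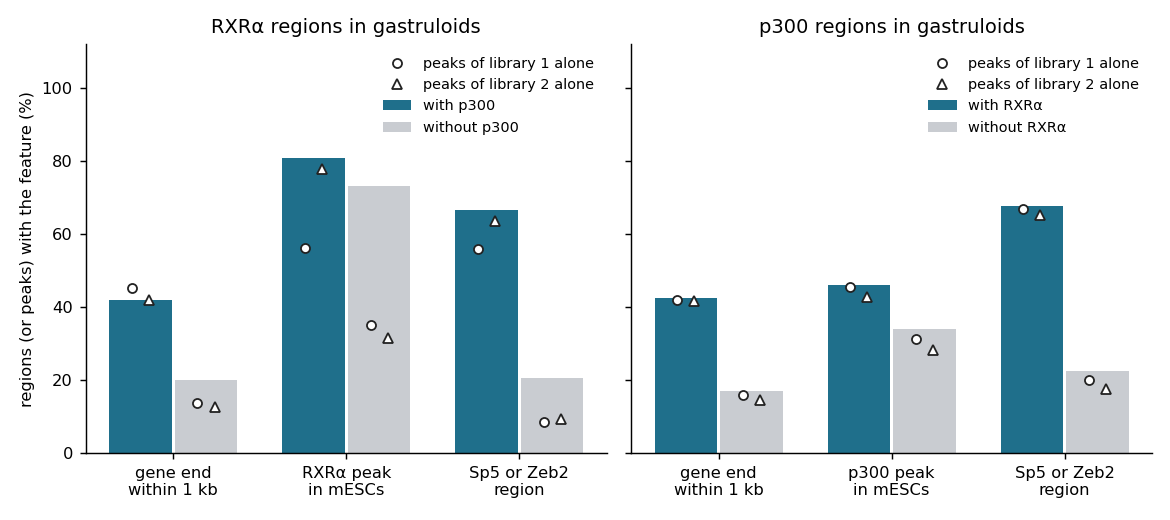
Share of regions (y axis, %) with a gene end within 1 kb, a peak of the same protein in mESCs, or an Sp5 or Zeb2 region, for RXRα regions with and without p300 (left) and p300 regions with and without RXRα (right). Bars are regions found in both libraries, and circles and triangles are the peaks of libraries 1 and 2 taken alone; the widest gaps were those for Sp5 or Zeb2 (66.5% and 20.6% of RXRα regions, 67.7% and 22.6% of p300 regions).

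**Figure D3:**
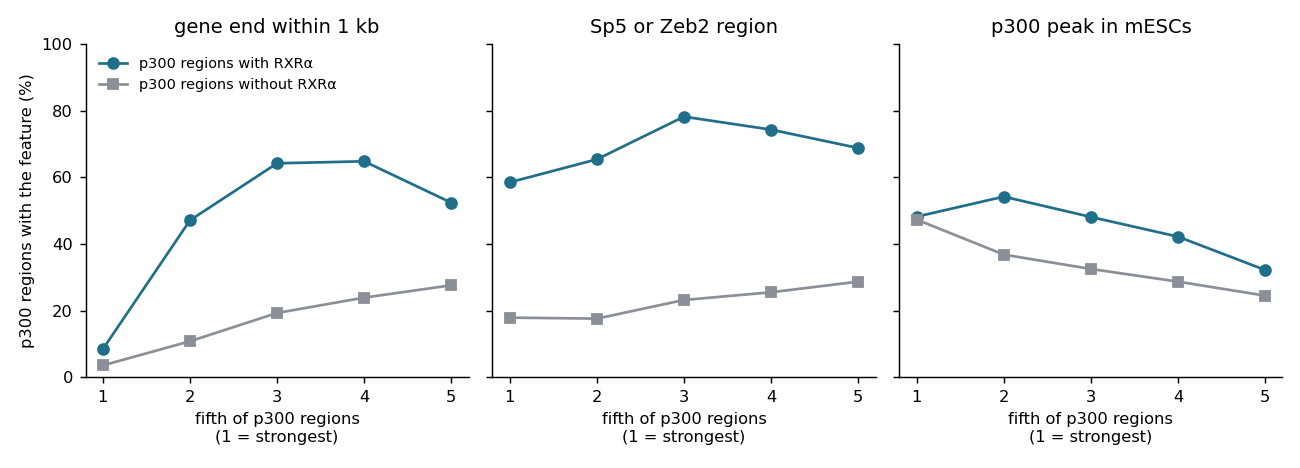
Share of p300 regions (y axis, %) with each of 3 features, with RXRα (blue circles) and without (grey squares), in 5 equal groups from the strongest (1) to the weakest (5) by mean rank of the authors' fold. The Sp5 or Zeb2 share was higher with RXRα in every group (58.5% and 17.9% in the strongest), while the mESC share hardly differed in the strongest group (48.2% and 47.3%).

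Regions with both RXRα and p300 carried Sp5 or Zeb2 more often than regions of either protein alone. Sp5 is a target gene of Wnt and encodes a factor that binds GC-rich sites, and Zeb2 represses epithelial genes. A region of at least 1 of them overlapped 1342 of 2017 RXRα regions with p300 (66.5%) and 69 of 335 without (20.6%), an odds ratio of 7.66 (5.79 to 10.1; two-sided Fisher's exact test, adjusted p = 1.93e-56). Among p300 regions it was 1364 of 2014 with RXRα (67.7%) and 11539 of 51011 without (22.6%), an odds ratio of 7.18 (6.52 to 7.9), with a p too small to be represented. Each factor alone showed the same direction: Sp5 overlapped 50.1% and 9.85% of RXRα regions with and without p300, and Zeb2 46.9% and 15.2%. The difference among RXRα regions was 21.3 points with 100 bp either side of the summits and 13.6 points with lists of equal length, against 45.9 points with the regions as called. Sp5, Zeb2 and RXRα were precipitated with the same antibodies, and the part of that in the overlap was not tested.

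The difference was present away from gene ends too. Among distal regions, those over 1 kb from any gene end, Sp5 or Zeb2 overlapped 51.1% of 1169 RXRα regions with p300 and 17.5% of 268 without, and 52% of 1159 p300 regions with RXRα and 12.3% of 42276 without. At gene ends the shares were 87.9% and 32.8% for RXRα regions and 89% and 72.4% for p300 regions. Where neither RXRα library had a peak, 10.2% of p300 regions carried Sp5 or Zeb2, and where the first RXRα library alone had one, 54.7% did. Sp5 was the more frequent of the 2 at gene ends with both proteins (77% for Sp5 and 55.4% for Zeb2 at RXRα regions with p300), and Zeb2 at distal ones (30.6% for Sp5 and 40.7% for Zeb2).

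Inside regions with both proteins the summits lay close together, but less close than the summits of 1 protein in its 2 libraries. The median distance between the RXRα and the p300 summit was 69 bp, and 60.1% of the 2017 pairs were within 100 bp. The 2 RXRα libraries placed the summit of these regions a median of 32 bp apart, and the 2 p300 libraries 36 bp. The offset was larger at gene ends, with a median of 128 bp in 848 regions, than at distal regions, with 48 bp in 1169. RXRα regions without p300 lay a median of 5071 bp from the nearest p300 summit, and 165 of the 335 (49.3%) were within 5 kb of one.

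**Figure D4:**
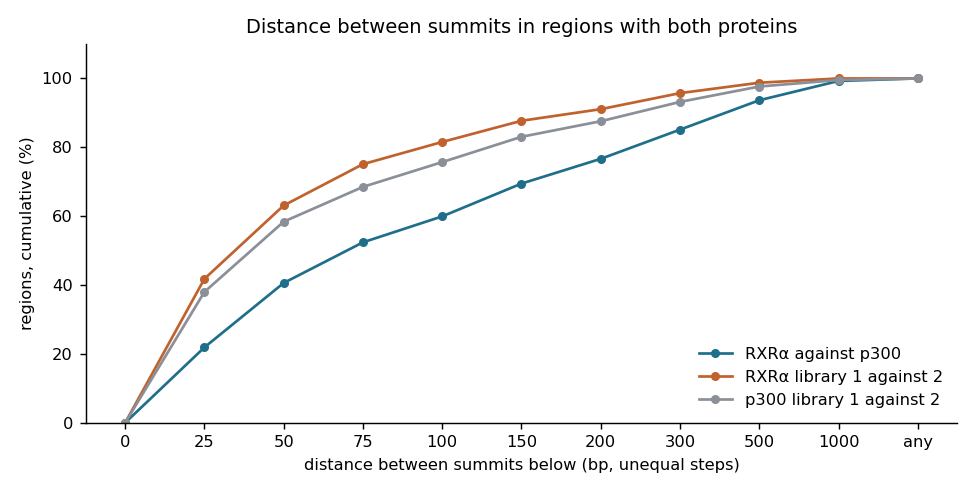
Cumulative share of regions with both proteins (y axis, %) whose summits lie less than a given distance apart (x axis, bp, in unequal steps), for RXRα against p300 (blue), RXRα library 1 against 2 (orange) and p300 library 1 against 2 (grey). The blue curve runs below the other 2 up to 1000 bp, with medians of 69 bp for RXRα against p300, 32 bp for RXRα and 36 bp for p300.

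Most RXRα regions found in both gastruloid libraries had an RXRα peak in mESCs, with or without p300. An RXRα peak in either mESC library was found at 1632 of 2017 regions with p300 (80.9%) and at 245 of 335 without (73.1%), an odds ratio of 1.56 (1.19 to 2.03; two-sided Fisher's exact test, adjusted p = 0.00153). Among the peaks of single libraries the shares were 77.7% with p300 and 31.7% without when RXRα replicate 1 was left out, and 56.2% and 35.2% when RXRα replicate 2 was left out. The difference of 7.78 points was thus 45.9 and 21. It turned to -2.95 with −log10 q of at least 5 (Fisher's exact test, adjusted p = 0.39). With lists of equal length it turned to -16.1 (Fisher's exact test, adjusted p = 1.43e-09). With 100 bp either side of the summits the shares were 73.9% and 73.2%, so the direction of this difference rests on the settings. The p300 regions with RXRα had a p300 peak in mESCs in 46.1% of cases and those without in 33.9%, an odds ratio of 1.67 (1.52 to 1.82; two-sided Fisher's exact test, adjusted p = 2.94e-28). That difference of 12.2 points was 4.24 without RXRα replicate 2, 6.69 with the stricter threshold, 6.28 around the summits, 3.11 for regions found in both mESC libraries and -1.59 with lists of equal length.

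Taking both proteins together, 839 of the 2017 RXRα regions with p300 (41.6%) had peaks of both in mESCs, and 793 (39.3%) had a peak of RXRα alone. p300 without RXRα in mESCs was rare at these regions, with 26 of them (1.29%), and 359 (17.8%) had neither. Gene ends made up 43.7% of the regions with both proteins in mESCs, 52.3% of those with RXRα alone and 16.4% of those with neither. At the 335 RXRα regions without p300 in gastruloids, 56 (16.7%) had both proteins in mESCs, 189 (56.4%) RXRα alone and 87 (26%) neither.

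The strongest regions with both proteins were mostly distal. By mean rank over the 2 libraries, the 8 strongest RXRα regions with p300 lay nearest to Ccdc85a, Qk, Syt1, Plekhb1, Armh1, Abca1 and Etv3l, and 1, at chr8:68016077-68016461, was inside Psd3 with no gene end within 100 kb. Qk encodes an RNA-binding protein, Syt1 the calcium sensor synaptotagmin and Etv3l an ETS factor. The region near Ccdc85a, chr11:28685364-28685797, stood at 40.8-fold and 20.8-fold for RXRα and at 15.4-fold and 17.8-fold for p300, and had no RXRα peak in mESCs. The region in Qk, chr17:10209128-10209784, stood at 40.6-fold and 20.2-fold for RXRα and 10.2-fold and 9.52-fold for p300, with mESC peaks of both. Of the 8, only the region at Abca1 was within 1 kb of a gene end, 6 had an RXRα peak in mESCs, and 2 overlapped an Sp5 or Zeb2 region. In the strongest of 5 equal groups of RXRα regions, the shares of those with p300 were 26.7%, 82.2% and 59.8%. Over all 2017 they were 42%, 80.9% and 66.5%. All 8 had at least 300 bp, with a median length of 432 bp.

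The strongest RXRα regions without a p300 region were shorter. The 8 strongest lay nearest to Gm45871, Ankrd28, Cables1, Cd209a, Myl12b and Rhbg, and 2 on chromosome 12 had no gene end within 100 kb, of which 1 lay inside Gphn. Their median length was 324 bp, and 4 of them were shorter than 300 bp. Both chromosome 12 regions and the Rhbg region had a peak in p300 library 2. The strongest of the 8, chr12:3109871-3110114, stood there at 23.7-fold and the Rhbg region at 4.61-fold. The former also stood at 20.4-fold in Sp5 library 1 and at 28.3-fold in Zeb2 library 2. An Sp5 or Zeb2 region overlapped 2 of the 8 strongest regions with p300 and 3 of these 8 without. In the strongest of 5 equal groups of RXRα regions the shares were 59.8% with p300 and 15.6% without. A peak in at least 1 Sp5 or Zeb2 library was found at 8 of the 8 with p300 and at 7 of the 8 without. The Gphn region, chr12:78350869-78351137, stood at 30.2-fold and 24.5-fold for RXRα, at 8.71-fold in p300 library 2, at 16.6-fold and 9.88-fold for Sp5 and at 35.1-fold and 25.3-fold for Zeb2. The region near Myl12b, chr17:70963666-70963894, stood at 22.3-fold and 24.1-fold for RXRα, at 15.8-fold in Sp5 library 1 and at 15.1-fold and 18.7-fold for Zeb2, with no p300 peak in either library. The regions near Gm45871 and in Cables1 had RXRα peaks in both mESC libraries, at 25.3-fold and 21.2-fold and at 24.9-fold and 20-fold, and no p300 peak in any library.

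On the p300 side, the 6 strongest regions with RXRα lay nearest to Sox13, Slain2, Crygs and Sobp, and 2, on chromosomes 14 and 3, had no gene end within 100 kb. The region in Sox13, which encodes a SOX factor, lay at chr1:133397485-133398135 and stood at 29.1-fold and 33.5-fold for p300 and 18.2-fold and 6.66-fold for RXRα. It had peaks of both proteins in mESCs. The 6 strongest p300 regions with no RXRα peak in either library lay nearest to Specc1, Sptlc2, Abca4, Zfp640 and Zbtb44, with 1 on chromosome 14 over 100 kb from any gene end. All 6 of these had peaks of both p300 and RXRα in mESCs, against 23.5% of all p300 regions without RXRα. In the strongest of 5 equal groups of p300 regions, 47.3% of those without RXRα had a p300 peak in mESCs. In Specc1, at chr11:62215000-62215523, RXRα stood at 34.6-fold and 33.4-fold in the mESC libraries and was in neither gastruloid list, while p300 stood at 29.1-fold and 37-fold in gastruloids and 34.3-fold and 33-fold in mESCs. An Sp5 or Zeb2 region overlapped 5 of the 6 with RXRα and 1 of the 6 without. The shares were 67.7% of all p300 regions with RXRα and 10.2% of those where neither RXRα library had a peak. Counts of 6 regions do not set the named ones apart from these.

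Regions were put to the protein-coding gene with the nearest end within 100 kb, which does not show which gene a region acts on. Of 21887 protein-coding genes, 1673 (7.64%) had at least 1 RXRα region with p300, 282 (1.29%) had an RXRα region without p300 and 14941 (68.3%) had a p300 region. The lists of genes below were chosen with earlier results of these data known, so their counts are given beside these shares and not tested. Most genes with a shared region had 1 (1551 genes), 102 had 2, 13 had 3 and 7 had 4. Among those with 4 were Cyp26a1, Meis1 and Meis2, which belong to the retinoic acid list, and Prtg, Sox13 and Spred2. The strongest region of Prtg, a membrane protein of the immunoglobulin superfamily, lay at chr9:72812539-72812924, at 29.3-fold and 14.4-fold for RXRα and 14.1-fold and 16.3-fold for p300, with peaks of both in mESCs. A region 155 bp from a gene end of Prtg stood at 29.1-fold and 12.4-fold for RXRα and 6.78-fold and 9.46-fold for p300, with no p300 peak in mESCs. The 4 regions of Sox13 ranged from 11.3-fold to 18.6-fold for RXRα in library 1 and from 3.25-fold to 29.1-fold for p300 in library 1.

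Among the 31 genes of the retinoic acid list, 11 (35.5%) had an RXRα region with p300, against 7.64% of all genes, 2 had an RXRα region without p300, against 1.29%, and 29 (93.5%) had a p300 region, against 68.3%. The 23 shared regions of this list stood at a median RXRα fold of 14.5 and 7.06 in libraries 1 and 2 and a median p300 fold of 9.01 and 11.5, against 12.3 and 5.52 and 6.78 and 7.67 over all 2017 shared regions. Of the 23, 2 were at gene ends (8.7%, against 42% of all 2017), 15 had an RXRα peak in mESCs (65.2%, against 80.9%) and 4 had a p300 peak in mESCs (17.4%, against 42.9%).

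The enzymes that remove retinoic acid had several shared regions. Cyp26a1, which encodes a retinoic acid hydroxylase, had 4. One lay 1838 bp from a gene end at chr19:37695641-37696117, at 25.7-fold and 10.7-fold for RXRα and 4.72-fold and 4.36-fold for p300, with RXRα but no p300 peaks in mESCs. The others lay 29689, 38506 and 87951 bp away, and there p300 stood between 15.1-fold and 27.7-fold in both libraries. At chr19:37730719-37731452 p300 stood at 24.2-fold and 27.7-fold and RXRα at 14.5-fold and 7.69-fold. None of the 4 had a p300 peak in mESCs. Cyp26b1 had 2 shared regions, 10373 and 29638 bp from a gene end, at 21.2-fold and 6.13-fold and at 13.3-fold and 6.42-fold for RXRα, again with no p300 peak in mESCs. Cyp26c1 had neither an RXRα nor a p300 region.

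Of the genes that make or take up retinoids, Dhrs3, which encodes a retinaldehyde reductase, had 2 shared regions and 1 RXRα region without p300. The strongest of the 3, at chr4:144949502-144949857, stood at 19.2-fold and 9.63-fold for RXRα and 21.7-fold and 25.7-fold for p300, and neither protein had a peak there in mESCs. Stra6, the receptor for retinol uptake, had 1 shared region at 17.2-fold and 5.47-fold for RXRα and 13.7-fold and 17.2-fold for p300. A further shared region covered a start of Stra6, at chr9:58129028-58129415, but counted for Ccdc33, whose end was nearer to its summit. The retinol and retinaldehyde dehydrogenases Rdh10, Aldh1a1, Aldh1a2 and Aldh1a3 had 3, 5, 12 and 7 p300 regions and no RXRα region. Of the strongest p300 region of each, only that of Aldh1a2 had an RXRα peak, at 6.65-fold in library 1 alone. Dhrs9 had 1 p300 region, and Rbp4, the retinol carrier of blood, had none.

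Crabp2, which carries retinoic acid to its receptors, had 2 shared regions and 1 RXRα region without p300. The shared region at chr3:87958089-87958484 stood at 17.8-fold and 4.9-fold for RXRα and 12.2-fold and 14.2-fold for p300, with no mESC peak of either. The RXRα region next to it, chr3:87958974-87959360, stood at 11.8-fold and 5.55-fold and had a p300 peak in library 2 alone, at 3.52-fold. Crabp1, a related carrier, had 5 p300 regions and no RXRα region, but at the strongest of the 5 RXRα library 1 alone had a peak, at 10.5-fold.

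Among the receptors, Rara and Rarg each had 1 shared region, and Rarb had the region at its start described above, which lay 144710 bp from the nearest gene end and so counted for no gene. At Rara, chr11:98959672-98960615, RXRα stood at 12.8-fold and 7.17-fold and p300 at 3.23-fold and 3.12-fold. At Rarg, chr15:102247005-102247783, the values were 14.2-fold and 8.28-fold for RXRα and 3.13-fold and 3.22-fold for p300. At Rara and Rarg the p300 fold thus lay below its medians over all shared regions in both libraries, and the RXRα fold above its own. The retinoid X receptor genes Rxra, Rxrb and Rxrg had 9, 1 and 2 p300 regions and no RXRα region. Of the strongest p300 region of each, only that of Rxrb had an RXRα peak, at 3.64-fold in library 1 alone.

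Most coregulators had no RXRα region. Ncor1, a corepressor, had a shared region 221 bp from a gene end, at 11.4-fold and 7.69-fold for RXRα and 5.96-fold and 5.46-fold for p300. Ncoa1, Ncoa2 and Nrip1 had 5, 7 and 8 p300 regions and no RXRα region by the nearest end. Of the strongest p300 region of each, only that of Nrip1 had an RXRα peak in gastruloids, at 12.4-fold in library 1 alone. Among genes that retinoic acid induces, Meis1 and Meis2, which encode partners of Hox proteins, had 4 shared regions each and 13 p300 regions without RXRα each. The strongest at Meis2, chr2:115869111-115869554, stood at 27-fold and 16.5-fold for RXRα and 16.6-fold and 21.7-fold for p300. The strongest at Meis1, chr11:18889112-18889487, stood at 23.1-fold and 13.5-fold for RXRα and 9.49-fold and 12.1-fold for p300. None of the 4 Meis1 regions had a peak of either protein in mESCs, while all 4 Meis2 regions had an RXRα peak there. Zfp703 had 1 shared region, at 17.9-fold and 5.11-fold for RXRα and 22.5-fold and 28.3-fold for p300, which was also the region of this list with the highest Sp5 fold (33.8 and 21.7). Stra8, Tgm2 and Cdx1 had 2, 4 and 1 p300 regions and no RXRα region by the nearest end, although 1 shared region lay inside Cdx1.

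Of 39 Hox genes, 11 (28.2%) had a shared region, against 7.64% of all genes, and 7 (17.9%) had an RXRα region without p300, against 1.29% of all genes. Hoxa3 and Hoxc4 had 2 shared regions each and Hoxa4 had 1. At Hoxc4, chr15:103061480-103061877 stood at 27.9-fold and 13.2-fold for RXRα and 8.5-fold and 9.42-fold for p300, while chr15:103038711-103039192 stood at 23.4-fold and 6.47-fold for RXRα with no p300 peak in either library.

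Targets of other RXR pairs also stood above the share of all genes. Of 24 lipid nuclear receptor targets, 10 (41.7%) had a shared region. Abca1, the cholesterol exporter induced by liver X receptors, had a region 105 bp from a gene end at chr4:53030362-53030900, at 36.2-fold and 19.2-fold for RXRα and 23.9-fold and 25.1-fold for p300, and no p300 peak there in mESCs. Abca1 had a further shared region 120 bp from its other end, at chr4:53159527-53160195, at 14.1-fold and 7.14-fold for RXRα, and 2 RXRα regions without a p300 region. Of these 2, 1 had a p300 peak in library 1 alone, at 4.39-fold, and the other in library 2 alone, at 4.6-fold. Gene ends were used without strand, so which end is the start was not read. Abcg1, a related exporter, had 1 shared region at 29.1-fold and 12.3-fold for RXRα, and Slc25a20 and Cpt1a, which move fatty acids into mitochondria, had 2 and 1. A further list held 25 nuclear receptor genes, the RXR genes among them, and not all of its members are partners of RXR. In it 8 (32%) had a shared region, among them Nr6a1 with 2 and Nr1h4, Nr2c1 and Nr2c2 with 1 each. Rara and Rarg, already in the retinoic acid list, and Ppara, already in the lipid list, were also among the 8.

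Among the lists for cell types of the embryo, the share ran from 7 of 20 neural tube genes (35%) to 1 of 21 genes of endothelium, blood and heart (4.76%), a share below the 7.64% of all genes. The median gene had 4.5 p300 regions in the neural tube list and 2 in the heart and blood list, against 1 over all genes. A gene with more p300 regions has more places for a shared one, and the share of genes does not allow for this. Irx3 and Pax7, factors of the neural tube, had 2 shared regions each, and Neurog2 and Nkx6-2 had 1 each. In the pluripotency list 5 of 20 genes had a shared region, among them Dppa3 with 2 and Klf4, Sall4 and Sox2 with 1. In the tail bud list 4 of 20 did, namely Evx1, Lhx1, Sp8 and Wnt3a, and in the Wnt list 4 of 20, namely Tcf7l1, Kremen1, Tcf7 and Znrf3. In the endoderm and notochord list 3 of 16 did, among them Foxa2 and Hnf4a with 1 region each. In the presomitic list 3 of 22 did, Hes1 and Meox1 with 2 regions each and Foxc1 with 1, in the neural crest list 2 of 14, Snai1 among them, and in the heart and blood list Tbx5. None of 20 genes of adult tissues did, and 10 of these (50%) had a p300 region, against 68.3% of all genes.

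The list shares on the p300 side did not follow the same order. RXRα regions took 13.6% of the p300 regions of the retinoic acid list, 17.4% of the Hox list, 18.2% of the lipid list and 11.4% of the nuclear receptor list, against 4.28% of the p300 regions put to any gene. The presomitic and Wnt lists had a p300 region at 95.5% and 100% of their genes, but 3.97% and 3.18% of their p300 regions with RXRα. In the neural tube, endoderm, pluripotency and tail bud lists RXRα regions took 7.56%, 5.81%, 5.36% and 5.06% of the p300 regions, nearer to the 4.28% than their shares of genes were to 7.64%. The neural crest and the heart and blood lists lay below it, at 2.35% and 1.3%.

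**Figure D5:**
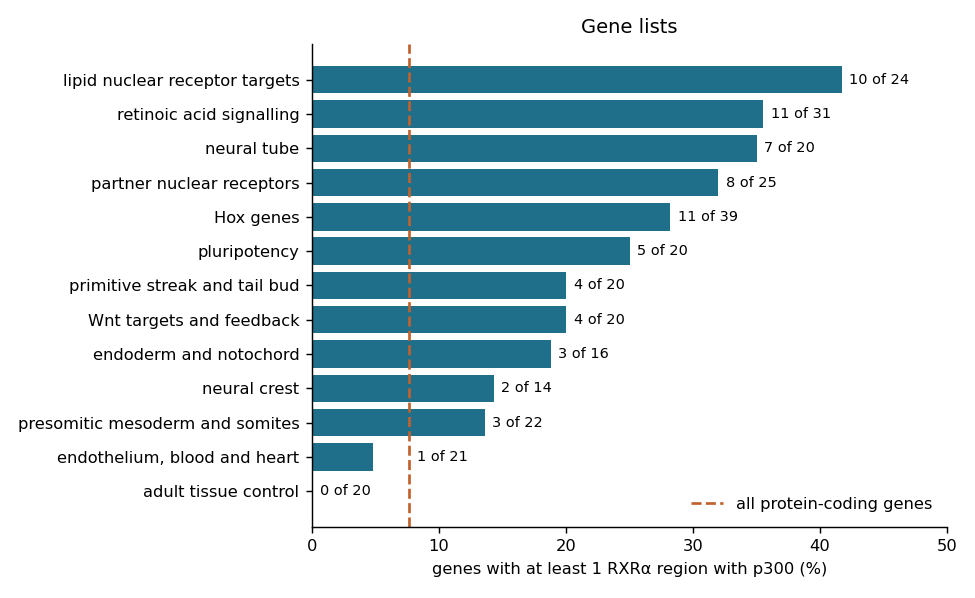
Share of the genes of each list (x axis, %) with at least 1 RXRα region that carried p300 in gastruloids, with the number of genes beside each bar; the dashed line is the 7.64% of all 21887 protein-coding genes. The lipid nuclear receptor targets (41.7%) and the retinoic acid list (35.5%) stood highest, and 2 lists lay below the line. The bar named partner nuclear receptors is the nuclear receptor list, which also holds the RXR genes and receptors that are not partners of RXR.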

How the data were processed

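ChIP-seq peak lists of 4 gastruloid libraries were analysed, with mESC, Sp5, Zeb2 and input lists beside them. The submitters' processing notes name 3 tools, MACS2 2.2.7, BWA 2.2.1 and fastp 0.20.1, and the build GRCm38.p6; roles, settings and control libraries are not given in the sources used here. The authors deposited 1 list per library, with a fold enrichment (ratio) over local background at the summit, a −log10 p and −log10 q and a score of 10 times that −log10 q. Folds were compared only within a list. Fragments at each summit were worked back from the fold and p the authors deposited, and came out whole within 0.01 for 100% of peaks of the 4 lists; total depth is unknown.

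Peaks on 21 chromosomes that overlapped no input peak were merged within a group (1 bp), and regions with a peak in both libraries were kept. Sp5 and Zeb2 regions were made likewise, and an mESC peak in either library counted. Gene ends within 1 kb came from a RefSeq table without strand. Two-sided Fisher's exact tests were adjusted by Benjamini-Hochberg over 6 comparisons (threshold 0.05). Python 3.11.15, numpy 2.4.6, pandas 2.3.3 and scipy 1.17.1 were used, and the overlap functions were tested on simulated data. Named genes were those of the strongest regions of each class, those with the most shared regions (7 tied for 6 places), all of the retinoic acid list and up to 4 of each other list. A few of these genes are not reported here. The regions compared and the lists were chosen with earlier results of these data known. Alternatives are given in the closing section.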

Additional observations from a re-analysis of the deposited data

How the results depend on the processing

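Each of the 10 results was recomputed under up to 12 of 15 settings, 102 values in all. The 2 with narrower intervals or RefSeq starts were chosen after seeing the data. Of 66 values for the 6 differences in share, 59 kept their direction and their side of the threshold. Leaving out 1 library at a time, RXRα regions with p300 ran from 58.7% to 88.7%, p300 regions with RXRα from 2.8% to 30.5%, and the p300 fold ratio from 0.951 to 1.29. With lists of equal length (3111 peaks each) RXRα regions with p300 were 20.5% and p300 regions with RXRα 10.7%. The gene-end difference then was -36.1 points for RXRα regions (adjusted p = 6.54e-36, Fisher's exact test). For p300 regions it was 1.92 points (adjusted p = 0.172, Fisher's exact test, others at 1.09e-37 or lower). The mESC difference was -16.1 points for RXRα (adjusted p = 1.43e-09, Fisher's exact test) and -1.59 for p300 (adjusted p = 0.609, Fisher's exact test). The p300 fold ratio was 0.985. Fewer peaks of each list are used there, and the strongest p300 peaks are mostly distal. With 100 bp either side of each summit the 2 shares were 65.7% and 2.92% and the p300 fold ratio 1.23. The RXRα gene-end difference was -11.8 points (Fisher's exact test, adjusted p = 4.76e-08). The RXRα mESC difference was 0.732 points (Fisher's exact test, adjusted p = 0.73). With −log10 q of at least 5, p300 regions with RXRα were 2.49%, the RXRα mESC difference -2.95 points (Fisher's exact test, adjusted p = 0.39, others 0.00727 or lower besides the one above) and the p300 fold ratio 1.19. With input peaks kept, p300 regions with RXRα were 3.98%. The cause of these changes was not tested. The differences for Sp5 or Zeb2 kept direction and side of the threshold in all 11 alternatives for each protein. No paired analysis was possible because the results are overlaps of peak lists with no fit across samples. The second RXRα list, with 3111 peaks, limits the RXRα regions; why it is short was not tested, and a missing peak is not a sign of absence.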
